A study of Macaca mulatta with 51 samples.

Results

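The proliferation genes described here are 43 genes named by symbol that cells switch on to copy their DNA (S phase) and to divide (G2 and M phases). Of these, 40 had an entry in the count table of 16033 genes. BUB1B, NUSAP1 and ANLN were not analysed here. KIF4A had a count of 0 in every library, so 39 genes could be tested in subcutaneous adipose tissue (AT). A further 5 genes, TYMS, TTK, UBE2C, MELK and CENPA, fell under the level filter in gastrocnemius skeletal muscle (SM), where 34 were tested. A gene was tested in a tissue when it reached 0.5 CPM, the count scaled to the size of its library in at least 10% of that tissue's libraries.

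The biopsies came from 10 rhesus macaques with diet-induced obesity (DIO) and without diabetes, of which 5 were male and 5 were females without ovaries (ovariectomized). They were 11 to 22 years old and had been kept on high-fat food for 2 years or longer. Every animal received native human FGF21 once daily under the skin for 12 weeks at rising doses, which reached 1000 ug/kg/day in 9 animals and were held at 300 ug/kg/day in 1. RNA was sequenced before the first dose (pre-treatment), at the end of dosing (post-treatment) and 16 weeks later (washout). There was no untreated group, so each animal was its own control, and time, diet and weight cannot be told apart from the agent. In time order AT had 10, 9 and 8 libraries, drawn from 10 animals, and SM had 6, 8 and 7, drawn from 8. Library totals ran from 14455195 to 23940980 counts.

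A dividing cell first loads the MCM2 to MCM7 helicase on its DNA and makes nucleotides with enzymes such as ribonucleotide reductase and thymidylate synthase. It then enters mitosis under cyclin B with the kinase CDK1, attaches its chromosomes to the spindle through the kinetochore, and is released by the anaphase-promoting complex (APC/C). In adult AT the cells known to divide are mainly progenitors, endothelial cells and immune cells, while mature adipocytes and muscle fibres are post-mitotic. In bulk tissue a lower level can mean fewer cells of a type or less RNA per cell, and these cannot be told apart.

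The 4 adipocyte markers in the table, ADIPOQ, PLIN1, LEP and FABP4, summed to between 9439 and 32426 CPM in the AT libraries and to between 36.7 and 1174 CPM in the SM libraries. The 9 fibre markers in the table summed to between 53910 and 272416 CPM in SM and to between 78.7 and 528 CPM in AT. The 5 satellite cell and myoblast markers in the table each averaged under 0.5 CPM in AT at every time point. Both tissues therefore carried the markers of their labels.

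One AT library stood apart in the proliferation genes. The post-treatment library of animal 20275 was the highest of all 27 AT libraries for 33 of the 39 genes and among the highest 3 for 37. Their summed level was 900.4 CPM in this library and ran from 262 to 558 CPM in the other 26. The same library also had the highest summed level of the 18 macrophage markers, 20021 CPM against 1251 to 16364 CPM in the others, and was the highest for 13 of those 18 genes. Its summed T and NK cell markers ranked second at 405 CPM, and its endothelial markers were the lowest of all at 750 CPM against 847 to 2495 CPM. The part of these markers in the proliferation gene levels was not tested. Values without this library are given beside the AT results that it moved.

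A score was computed to place each library, the mean over the tested genes of log2 CPM after each gene was standardized across the libraries of the tissue. It is a description without a test. In AT the score ran from -0.70 to 0.97 at pre-treatment (median -0.20, n = 10), from -0.84 to 2.26 at post-treatment (median 0.14, n = 9) and from -1.28 to 1.15 at washout (median -0.42, n = 8). The 3 groups overlapped widely. From pre-treatment to post-treatment it was higher in 3 of 9 animals, with changes from -1.68 to 2.62. The animals moved apart: 38 of the 39 genes were higher at post-treatment in animal 20275, while all 39 were lower in animal 20456. From post-treatment to washout the score was higher in 3 of 8 animals, and from pre-treatment to washout in 2 of 8. The highest washout library was that of animal 23004, which also had a score of 0.84 at pre-treatment, and the lowest was that of animal 21866, which was the lowest AT library for 15 of the 39 genes.

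In SM the score ran from -0.19 to 0.64 at pre-treatment (median 0.16, n = 6), from -0.57 to 0.85 at post-treatment (median -0.05, n = 8) and from -0.46 to -0.05 at washout (median -0.15, n = 7). The washout libraries lay closest together. All 6 animals with both libraries had a lower score at washout than at pre-treatment, by 0.22 to 0.69. In 2 of the 6 both libraries had identifiers of the same number series, and in the rest the series differed. The pair of highest SM libraries, the post-treatment samples of animals 21189 and 21866, were also the highest for 9 and 10 of the 34 genes. These libraries had the lowest summed fibre markers, 53910 and 99996 CPM against a median of 224353 CPM over all the SM libraries other than that of animal 21189, and the highest summed progenitor and fibroblast markers, 26558 and 19132 CPM. The part of tissue makeup in the SM scores was not tested.

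**Figure D1:**
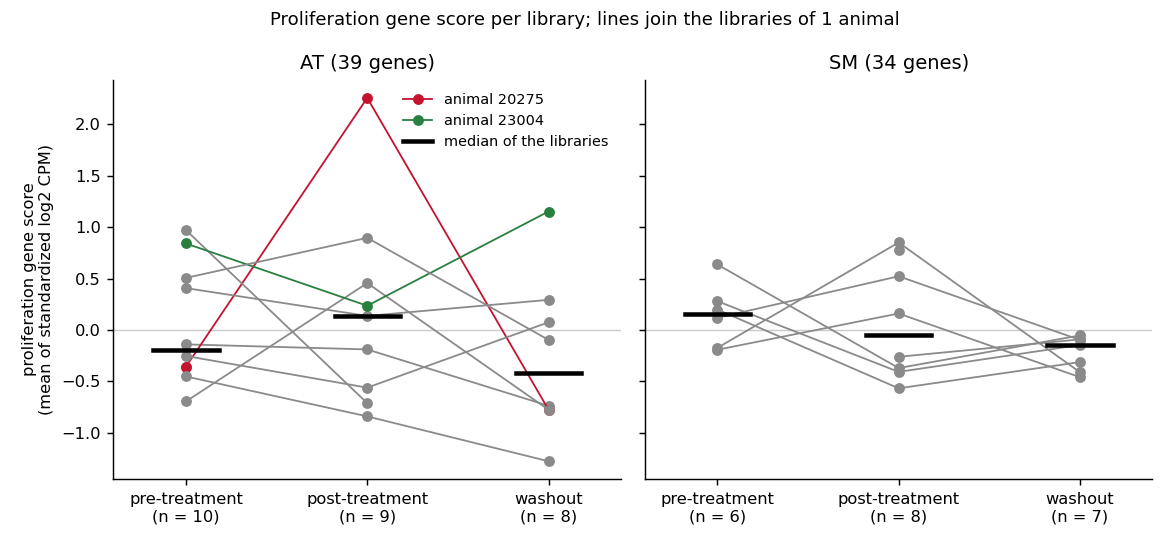
Proliferation gene score per library (y axis, mean of standardized log2 CPM) at the 3 time points (x axis) in AT, left, over 39 genes, and SM, right, over 34 genes. Points are libraries, thin lines join the libraries of 1 animal, and black bars are group medians. The post-treatment library of animal 20275 sits at 2.26, above every other AT library, and the SM washout libraries sit between -0.46 and -0.05.

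To ask whether the proliferation genes changed over the course of treatment in AT, the 3 time points were compared within animals with edgeR's quasi-likelihood test, and differentially expressed (DE) genes were those whose Benjamini-Hochberg adjusted p was below 0.05 and whose log2 fold change was above 0.26 or below -0.26. Between pre-treatment and post-treatment none of the 39 genes was DE by edgeR, where 14.5% of all genes tested were DE (1943 of 13367, 6.53% higher and 8% lower). DESeq2 also called 0 and limma's voomWithQualityWeights called 1, CCNB1. By edgeR 3 of the 39 genes had an unadjusted p under 0.05, beside 33.3% of all genes tested. The fitted log2 fold change was above 0 for 29 of the 39 genes, with a median of 0.15 beside 0.03 over all genes tested. That direction depended on 1 library and on the method: the median was -0.11 without the post-treatment library of animal 20275 and -0.12 with voomWithQualityWeights. It was 0.32 without animal 20456, 0.05 without animal 22130 and 0.02 with the series of library identifiers as a covariate.

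CCNB1, cyclin B1, which drives entry into mitosis, had the smallest adjusted p of the 39 genes. Its level ran from 10.4 to 16.7 CPM at pre-treatment (median 14.3), from 5.88 to 23.3 CPM at post-treatment (median 8.30) and from 9.59 to 15.8 CPM at washout (median 13.4). Post-treatment was the lower of the pair in 8 of 9 animals, and the exception was animal 20275, which held the highest value of all. The log2 fold change was -0.43 ± 0.18 (SE, n = 9 animals with both libraries; edgeR adjusted p = 0.110). Without the post-treatment library of animal 20275 it was -0.65 with an adjusted p of 0.00382, which is DE, and over all settings tried the adjusted p ran from 0.00382 to 0.280.

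PCNA, the sliding clamp of DNA polymerase, moved the other way. It ran from 28.4 to 46.8 CPM at pre-treatment (median 37.3), from 33.5 to 94.0 CPM at post-treatment (median 45.2) and from 29.0 to 58.1 CPM at washout (median 35.5). Post-treatment was the higher of the pair in 8 of 9 animals, and the groups overlapped. The log2 fold change was 0.38 ± 0.16 (SE; edgeR adjusted p = 0.114) and was 0.21 without the post-treatment library of animal 20275 (adjusted p = 0.233).

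The genes with the largest fitted changes toward post-treatment were CENPA, the histone H3 variant of centromeres, at 0.66 ± 0.42 on the log2 scale, TYMS at 0.48 ± 0.35 and RRM2 at 0.42 ± 0.47 (SE). None was DE (edgeR adjusted p = 0.278, 0.350 and 0.559). Without the post-treatment library of animal 20275 the values were 0.35 for CENPA, 0.14 for TYMS and 0.0058 for RRM2. The largest in the other direction after CCNB1 were PLK1, a mitotic kinase, at -0.27 ± 0.21 (edgeR adjusted p = 0.393) and MCM7 at -0.22 ± 0.14 (edgeR adjusted p = 0.273). PLK1 was at -0.44 without that library.

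The customary markers of dividing cells showed the weight of 1 library. MKI67, which encodes the Ki-67 antigen, ran from 4.06 to 25.5 CPM at pre-treatment (median 11.6), from 3.35 to 48.9 CPM at post-treatment (median 11.3) and from 1.5 to 22.3 CPM at washout (median 7.01). TOP2A, the topoisomerase that untangles sister chromatids, ran from 4.91 to 22.3 CPM (median 10.7), from 6.22 to 63.0 CPM (median 11.7) and from 3.05 to 18.6 CPM (median 6.03) at the same times. For both genes the post-treatment library of animal 20275 held the top value, and the medians before and after dosing lay close together. The log2 fold change from pre-treatment to post-treatment was 0.12 ± 0.41 for MKI67 and 0.26 ± 0.42 for TOP2A (SE; edgeR adjusted p = 0.869 and 0.700). Without that library the values were -0.23 and -0.15, and with it kept both were -0.24 with voomWithQualityWeights. The sign therefore depended on the library and on the setting. CDK1, the catalytic partner of cyclin B, had medians of 5.36, 6.83 and 6.55 CPM at the 3 times and a log2 fold change of 0.35 ± 0.28 (SE; edgeR adjusted p = 0.409), or 0.08 without that library. MCM2 had a log2 fold change of -0.18 ± 0.11 (SE; edgeR adjusted p = 0.249).

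**Figure D2:**
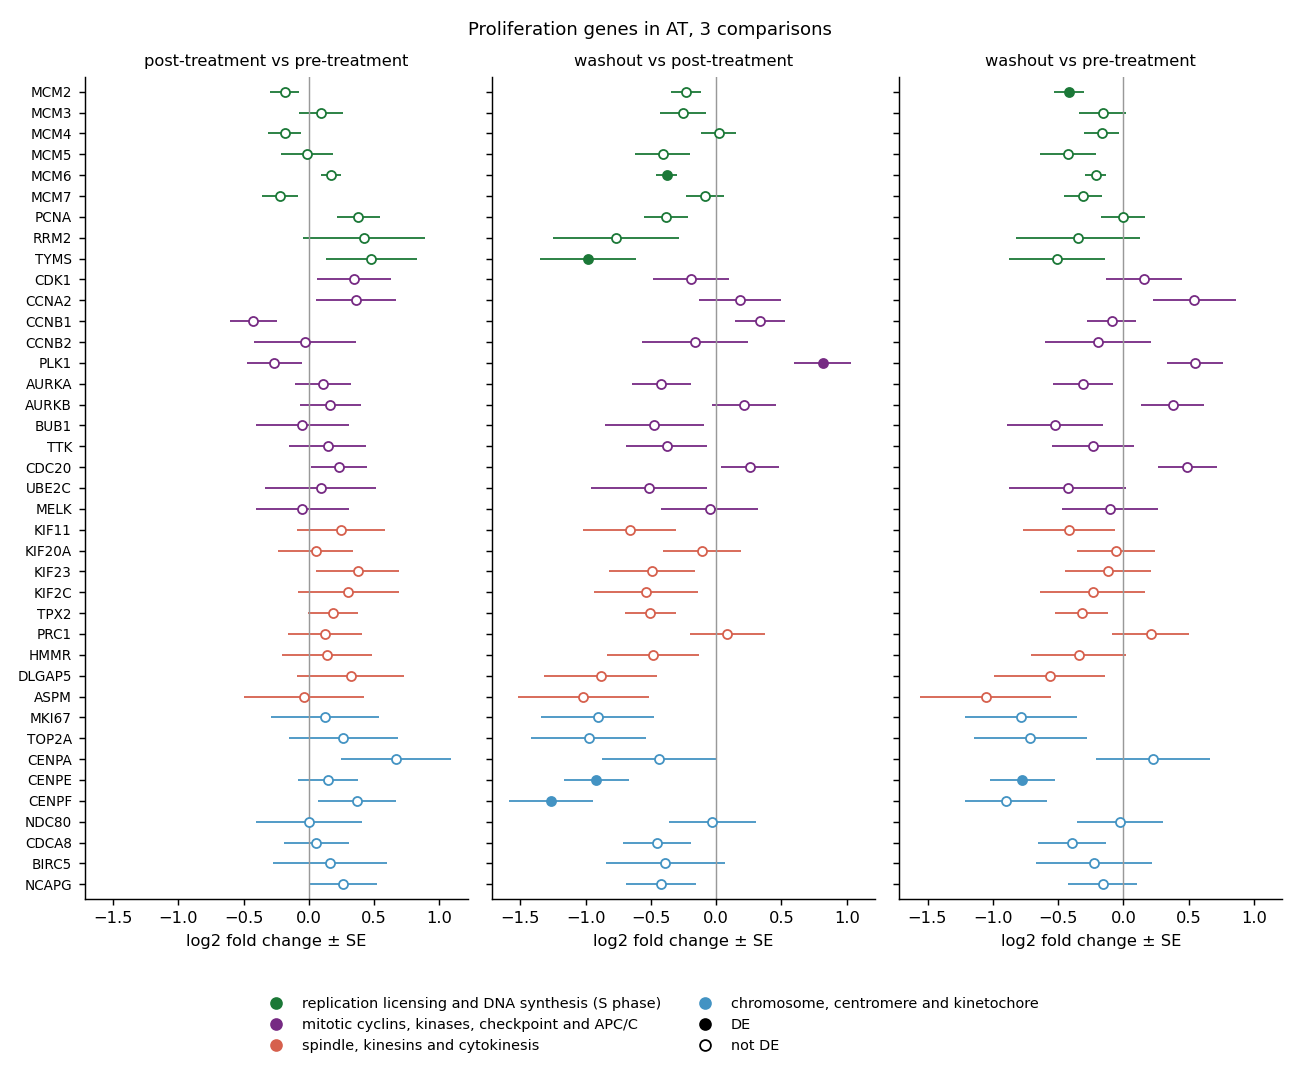
Log2 fold change with its SE (x axis) of the 39 proliferation genes tested in AT (y axis, coloured by role) in the 3 comparisons. Filled points are DE by edgeR and open points are not. No gene is filled in the left panel, 5 are in the middle panel and 2 in the right panel.

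From post-treatment to washout 5 of the 39 genes were DE in AT, 4 lower and 1 higher, a share of 12.8% where 34% of all genes tested were DE (17.4% lower and 16.6% higher). The fitted change was below 0 for 32 of the 39 genes, with a median of -0.41 beside -0.002 over all genes tested. Without the post-treatment library of animal 20275 the median was -0.16, and with voomWithQualityWeights it was -0.18. By role, 2 of 9 replication genes, 1 of 12 cyclin, kinase, checkpoint and APC/C genes, 0 of 9 spindle genes and 2 of 9 chromosome and kinetochore genes were DE. Before adjustment p was below 0.05 for 3, 1, 1 and 4 genes of these roles, beside 45.7% of all genes tested. All 18 macrophage markers were DE and lower at washout, and their sum had a median of 1991 CPM (1251 to 7417) against 9051 CPM (4184 to 20021) at post-treatment and 4044 CPM (1807 to 6858) at pre-treatment. Of the 11 T and NK cell markers in the table, 2 were DE, both lower, and CD7 averaged under 0.5 CPM. Their sum had medians of 80.4, 224 and 131 CPM at washout, post-treatment and pre-treatment. The single markers were mixed: the fitted change to washout was above 0 for 4 of the 11 from post-treatment. From pre-treatment it was above 0 for 8 of the 11, and only CD4 was DE, lower. Of 11 progenitor and fibroblast markers 4 were DE, all lower, with summed medians of 23445 CPM at washout and 38544 CPM at post-treatment. Of 8 endothelial markers 4 were DE, all higher, with summed medians of 1730 and 1162 CPM. Of 5 erythroid markers tested 4 were DE, all higher. The 7 erythroid markers in the table had summed medians of 5109 CPM at washout and 852 CPM at post-treatment. The part of these cells in the changes was not tested.

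CENPF, a large protein of the outer kinetochore, fell most. It ran from 7.40 to 16.4 CPM at pre-treatment (median 10.8), from 6.57 to 44.1 CPM at post-treatment (median 14.4) and from 3.63 to 10.97 CPM at washout (median 5.83). Washout was the lower of the pair in 7 of 8 animals, and the exception was animal 26292. Its log2 fold change from post-treatment to washout was -1.26 ± 0.32 (SE; edgeR adjusted p = 0.00538). Without the post-treatment library of animal 20275 the change was -0.99 and still DE (adjusted p = 0.00572).

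CENPE, the kinesin that moves chromosomes at the kinetochore, fell with it. It ran from 4.56 to 10.6 CPM (median 8.30), from 5.74 to 22.1 CPM (median 8.002) and from 2.23 to 9.38 CPM (median 4.16) at the 3 times. Again washout was lower in all but animal 26292 of the 8 animals, and the washout range reached into the other groups only through that animal and animals 21189 and 23004. The log2 fold change was -0.92 ± 0.25 (SE; edgeR adjusted p = 0.00773), and -0.70 without the post-treatment library of animal 20275 (adjusted p = 0.0123).

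MCM6, a subunit of the replicative helicase, fell by a smaller amount with less spread. It ran from 34.6 to 45.8 CPM at pre-treatment (median 39.5), from 39.5 to 54.3 CPM at post-treatment (median 41.6) and from 26.5 to 45.4 CPM at washout (median 34.7). Of the 8 washout libraries only that of animal 23004 lay inside the post-treatment range, and it was also the single animal that was not lower. The log2 fold change was -0.38 ± 0.08 (SE; edgeR adjusted p = 0.00160).

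TYMS, thymidylate synthase, ran from 1.49 to 4.15 CPM (median 2.15), from 1.38 to 12.3 CPM (median 2.83) and from 0.872 to 4.98 CPM (median 1.53) at the 3 times, from 15 to 244 counts a library. Washout was lower in 7 of 8 animals. The log2 fold change was -0.98 ± 0.37 (SE; edgeR adjusted p = 0.0438). This call was the least secure of the 5: without the post-treatment library of animal 20275 the change was -0.62 (adjusted p = 0.102), and the adjusted p ran from 0.0105 to 0.126 over all settings tried, the highest without animal 20275.

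PLK1 was the 1 gene that rose. It ran from 4.11 to 8.66 CPM at pre-treatment (median 5.86), from 3.19 to 10.8 CPM at post-treatment (median 4.71) and from 6.09 to 12.9 CPM at washout (median 9.38). Leaving aside animal 20275, which held the top post-treatment value, 6 of the other 7 washout libraries lay above every post-treatment library. Washout was higher in 7 of 8 animals, and the log2 fold change was 0.82 ± 0.22 (SE; edgeR adjusted p = 0.00679), or 1.02 without that library (adjusted p = 0.000614). In the RefSeq annotation of the T2T-MMU8v2.0 assembly PLK1 overlaps ERN2 and DCTN5. In the same comparison ERN2, a stress sensor of epithelial cells, rose by 0.85 ± 0.24 (edgeR adjusted p = 0.0113) and DCTN5, a dynactin subunit, fell by 0.45 ± 0.11 (edgeR adjusted p = 0.00554). Whether reads were shared between these genes was not tested.

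The remaining usual markers did not pass. MKI67 had a log2 fold change of -0.91 ± 0.43 and TOP2A one of -0.98 ± 0.44 (SE; edgeR adjusted p = 0.107 and 0.0921). ASPM, a spindle pole protein, had the largest fitted decrease outside the called genes, -1.02 ± 0.50 (edgeR adjusted p = 0.123), at washout levels of 0.0969 to 3.23 CPM. RRM2, the small subunit of ribonucleotide reductase, was at -0.77 ± 0.48 (edgeR adjusted p = 0.224), with a washout range of 2.76 to 38.7 CPM set at its top by animal 23004. PCNA was at -0.38 ± 0.17, MCM2 at -0.23 ± 0.12 and CDK1 at -0.19 ± 0.29 (edgeR adjusted p = 0.0849, 0.122 and 0.640). Besides PLK1, CCNB1 at 0.34 ± 0.19 and CDC20, the activator of APC/C, at 0.26 ± 0.22 had the largest positive values (edgeR adjusted p = 0.177 and 0.378). Without the post-treatment library of animal 20275 CCNB1 was at 0.56 and DE (edgeR adjusted p = 0.00136), while MKI67 and TOP2A were at -0.57 and -0.55 (adjusted p = 0.256 and 0.203). Without it ASPM was at -0.66, RRM2 at -0.36, PCNA at -0.19, CDK1 at 0.09 and CDC20 at 0.44, and none of these was DE.

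Libraries carried identifiers from several number series, which the labels do not explain. In the latest series 3 animals had both a post-treatment and a washout AT library. Within it CENPF, CENPE, MCM6 and TYMS were lower at washout in 3 of 3 animals and PLK1 was higher in 3 of 3. These 3 animals were also in the comparison that called the genes, so the counts are a description and not a separate result.

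**Figure D3:**
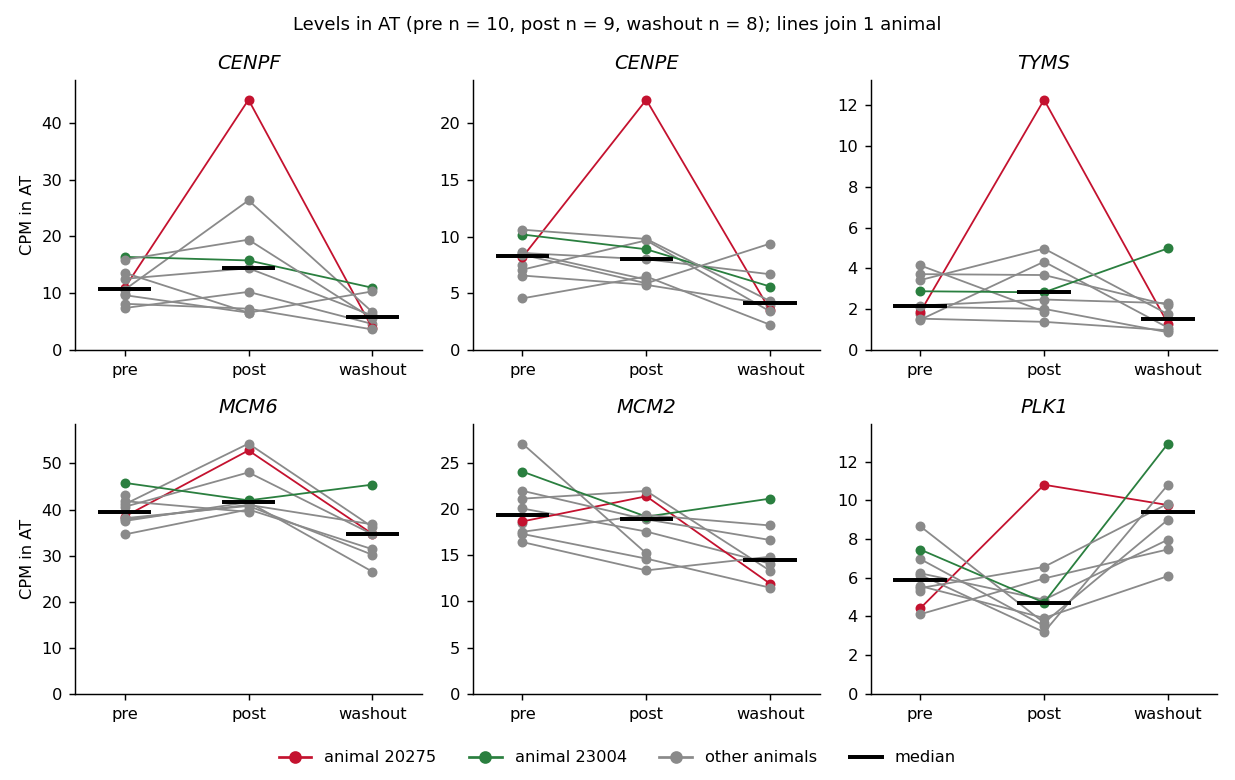
CPM in AT (y axis, from 0) of the 6 genes DE in any AT comparison at the 3 time points (x axis). Points are libraries, lines join 1 animal, and black bars are medians over 10 pre-treatment, 9 post-treatment and 8 washout libraries. CENPF, CENPE, TYMS, MCM6 and MCM2 have their lowest median at washout and PLK1 its highest, 9.38 CPM.

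Washout was also set against pre-treatment in AT. Of the 39 genes 2 were DE, both lower, a share of 5.13% where 19.8% of all genes tested were DE (7.8% lower). The fitted change was below 0 for 32 genes, with a median of -0.23 beside -0.02 over all genes. The median was -0.36 without the washout library of animal 23004. MCM2, a helicase subunit, ran from 16.4 to 27.0 CPM at pre-treatment (median 19.3), from 13.3 to 21.9 CPM at post-treatment (median 18.9) and from 11.5 to 21.1 CPM at washout (median 14.4). It was lower at washout than at pre-treatment in 7 of 8 animals, with a log2 fold change of -0.42 ± 0.12 (SE; edgeR adjusted p = 0.0147). CENPE was lower in 7 of 8 animals at -0.77 ± 0.25 (SE; edgeR adjusted p = 0.0303). With library size alone as the scaling neither was DE and PLK1 was. The median of all genes was -0.02 with TMM scaling and 0.09 with library size alone, a shift over 0.1, and that of the members was -0.12 with library size alone.

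CENPF was just short of the threshold in this comparison at -0.90 ± 0.32 (edgeR adjusted p = 0.0515). Without the post-treatment library of animal 20275, which shares the estimate of spread, CENPF and PLK1 were DE as well, at -0.92 and 0.58 (edgeR adjusted p = 0.00922 and 0.0232). ASPM had the largest fitted decrease, -1.06 ± 0.50, followed by CENPF and by MKI67 at -0.79 ± 0.43 (edgeR adjusted p = 0.150 for ASPM and 0.210 for MKI67). PLK1 was at 0.55 ± 0.22, CCNA2, cyclin A2, at 0.54 ± 0.32 and CDC20 at 0.49 ± 0.22 (edgeR adjusted p = 0.0798, 0.240 and 0.133). PLK1 and CDC20 were higher at washout in 8 of 8 animals and CCNA2 in 7 of 8. Of these 3, PLK1 and CDC20 act in mitosis and cyclin A2 in S phase and at mitotic entry.

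In SM no proliferation gene was DE in any of the 3 comparisons by edgeR. All genes tested gave 0% DE from pre-treatment to post-treatment, 0.135% from post-treatment to washout (0.00793% lower) and 0.0238% from pre-treatment to washout, so few genes of any kind were called. Members with an unadjusted p under 0.05 by edgeR numbered 1, 2 and 3 of 34, beside 2.56%, 16.1% and 12.8% of all genes tested. Both DESeq2 and voomWithQualityWeights called 0 members in each comparison. The spread left after time point and animal were fitted was larger in SM, with a biological coefficient of variation of 0.356 beside 0.248 for AT. From pre-treatment to washout 27 of the 34 genes had a fitted change below 0, with a median of -0.40 beside -0.06 over all genes tested. The median was -0.21 without animal 22130 and -0.13 over the members with at least 10 counts in every library.

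Counts of the mitotic genes in SM were small. MKI67 ran from 0.158 to 2.26 CPM at pre-treatment (median 0.640), from 0 to 2.37 CPM at post-treatment (median 0.372) and from 0.476 to 1.17 CPM at washout (median 0.672), with 0 to 58 counts a library. TOP2A ran from 0.105 to 1.66 CPM, from 0.0713 to 1.68 CPM and from 0.271 to 1.004 CPM at the same times. RRM2 ran from 0.158 to 1.40 CPM, from 0.0754 to 4.46 CPM and from 0.131 to 1.34 CPM. In these genes the highest SM value after dosing was in animal 21189, and all 3 groups overlapped. CDK1 had medians of 1.33, 0.685 and 1.04 CPM and CCNB1 of 0.948, 0.920 and 0.682 CPM. TYMS was at 0 to 19 counts in every SM library and was not tested. The absence of a call does not show that these genes did not change.

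The more abundant replication genes were steadier in SM. PCNA ran from 14.3 to 22.8 CPM at pre-treatment (median 18.6), from 13.5 to 22.9 CPM at post-treatment (median 17.6) and from 11.6 to 16.8 CPM at washout (median 15.1). It was lower at washout than at pre-treatment in 5 of 6 animals, at -0.34 ± 0.16 on the log2 scale (SE; edgeR adjusted p = 0.383). MCM2 had medians of 7.60, 7.86 and 8.19 CPM, with overlapping groups. MCM7 was higher at post-treatment than at pre-treatment in 4 of 6 animals, at 0.26 ± 0.12 (edgeR adjusted p = 0.9998), and lower at washout than at post-treatment in 6 of 7, at -0.34 ± 0.11 (edgeR adjusted p = 0.182).

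AURKB, the kinase of the chromosomal passenger complex, was lower at washout in every SM animal compared, 7 of 7 against post-treatment and 6 of 6 against pre-treatment. Its washout levels of 0.0611 to 0.795 CPM lay partly below the pre-treatment range of 0.399 to 1.24 CPM and the post-treatment range of 0.162 to 2.74 CPM. The log2 fold changes were -0.89 ± 0.37 and -0.95 ± 0.39 (SE; edgeR adjusted p = 0.262 and 0.348). PLK1 was lower at washout than at pre-treatment in 5 of 6 animals, at -0.59 ± 0.27 (edgeR adjusted p = 0.387). With the identifier series as a covariate 3 genes were DE from post-treatment to washout, AURKB, CCNA2 and PCNA, all lower, and 1, PCNA, from pre-treatment to washout. With that covariate 18.9% and 10.1% of all genes tested were DE. Both libraries lay in the latest series for 2 of 7 SM animals against post-treatment and 2 of 6 against pre-treatment. In the rest the series differed, so time and series cannot be told apart in them.

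To test whether the tissues differed in their change, the SM change was compared with the AT change in 1 fit over both tissues, for 34 genes, calling an adjusted p under 0.05. From pre-treatment to post-treatment no member was called by edgeR (0.0406% of all genes tested), and voomWithQualityWeights also called 0. By edgeR 1 of the 34 had an unadjusted p under 0.05, MCM7 (adjusted p = 0.338), beside 10.2% of all genes tested. Between post-treatment and washout 2 were called, where 21.9% of all genes were (10.5% with a positive and 11.5% with a negative difference). CENPF fell in AT and had a fitted change of 0.86 ± 0.43 in SM (edgeR adjusted p = 0.339), and the SM change exceeded the AT change by 2.15 ± 0.54 on the log2 scale (SE; edgeR adjusted p = 0.00457). PLK1 rose in AT and was at -0.39 ± 0.26 in SM (edgeR adjusted p = 0.493), a difference of -1.20 ± 0.34 (SE; edgeR adjusted p = 0.0116). CENPF was at 3 to 51 counts in the SM libraries, with its top value of 2.70 CPM in the washout library of animal 22130, and it was higher at washout in 6 of 7 SM animals against 1 of 8 AT animals. That library was also the highest of the SM libraries for summed endothelial markers (356 CPM) and T and NK cell markers (47.8 CPM) and the second for macrophage markers (619 CPM). Of the 11 T and NK cell markers in the table only 1, CD4, averaged 0.5 CPM or more in SM at washout. The washout library of animal 22130 was the highest SM library for 1 of the 11. The difference between tissues was positive for all 18 macrophage markers, of which 5 were called, with a median of 1.65. The part of these cells in the CENPF difference was not tested. Of the 7 SM animals, 2 had both libraries in the same identifier series. In the rest the SM change cannot be told apart from the series.

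From pre-treatment to washout the same 2 genes were called, where 17% of all genes were (8.19% with a positive and 8.84% with a negative difference). The differences were -1.07 ± 0.35 for PLK1 and 1.56 ± 0.54 for CENPF (SE; edgeR adjusted p = 0.0310 and 0.0444). Both calls were lost without animal 21866, 22130 or 24849, and 1 was lost without each of 19832, 20261, 20275, 20456 and 23004. AURKB, MCM2 and CCNA2 came next, at -1.20 ± 0.44, 0.57 ± 0.21 and -1.32 ± 0.51 (edgeR adjusted p = 0.0561, 0.0580 and 0.0745). Here too the identifier series differed between the SM libraries in all but 2 of 6 animals.

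**Figure D4:**
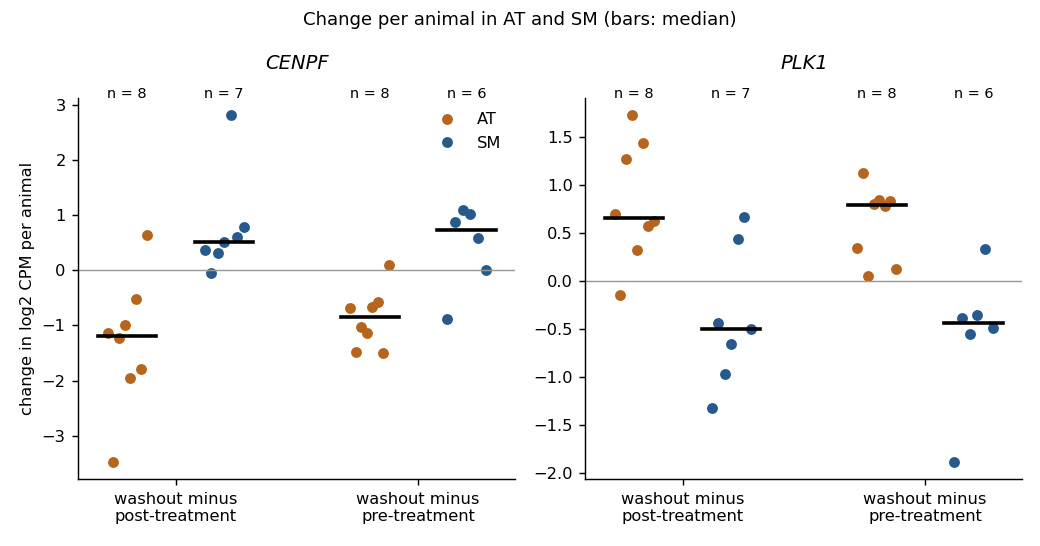
Change in log2 CPM per animal (y axis) of CENPF, left, and PLK1, right, from post-treatment and from pre-treatment to washout (x axis) in AT and SM. Points are animals (n = 8, 7, 8 and 6 from left to right in each panel) and black bars are medians. From post-treatment to washout CENPF was lower in 7 of 8 AT animals and higher in 6 of 7 SM animals, and PLK1 was higher in 7 of 8 AT animals and 2 of 7 SM animals.

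The largest contrast was between the tissues themselves. Before treatment 33 of the 39 genes were DE between SM and AT, a share of 84.6% where 76.4% of all genes tested were DE. Of these, 30 were lower in SM, 76.9% of the 39 genes against 41.3% of all genes, and 3 were higher, 7.69% against 35.1%. The median log2 difference, SM minus AT, was -2.16 over the members and -0.17 over all genes. For 18 members every SM library lay below every AT library, which held for 25.9% of all genes, and for 1, HMMR, every SM library lay above, which held for 21.3% of all genes. In this comparison CPM were scaled over both tissues together, with 10 AT and 6 SM libraries. The fit took in all 48 libraries of both tissues at the 3 time points. Its animal terms were shared by both tissues, so libraries of the same animal and tissue were otherwise treated as independent. Genes entered this comparison when they passed the level filter in either tissue. TYMS, TTK, UBE2C, MELK and CENPA passed in AT alone, and all of them were among the genes DE and lower in SM. TYMS, TTK and MELK were also among the 18 without overlap. Their direction was favoured by the filter and is not a separate result.

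The chromosome and kinetochore genes differed most, and 9 of 9 were lower in SM, among them CENPA, which passed the filter in AT alone. TOP2A was at 10.0 ± 4.48 CPM in AT and at 0.786 ± 0.810 CPM in SM (SD), a log2 difference of -3.87 ± 0.64 (SE; edgeR adjusted p = 1.57e-06). CENPE followed at -3.83 ± 0.51, CENPF at -3.80 ± 0.44 and MKI67 at -3.43 ± 0.69 (SE). For each of these 4 genes the 2 sets of libraries did not overlap. MKI67 was at 10.9 ± 5.41 CPM in AT and at 1.12 ± 1.06 CPM in SM (SD).

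Of the 9 replication genes 7 were lower in SM and 2 were not DE. RRM2 differed most, at -3.50 ± 0.71, followed by TYMS, which passed the filter in AT alone, at -2.93 ± 0.62 (SE). The helicase subunits were uneven: MCM3 and MCM5 were at -2.68 ± 0.32 and -2.60 ± 0.30, MCM7, MCM6 and MCM2 at -1.35 ± 0.16, -0.97 ± 0.14 and -0.72 ± 0.17, and MCM4 at 0.05 ± 0.17 (SE; edgeR adjusted p = 0.791 for MCM4). PCNA was at 29.1 ± 4.87 CPM in AT and 24.8 ± 4.59 CPM in SM (SD), a log2 difference of -0.29 ± 0.17 (SE; edgeR adjusted p = 0.125). The cyclins and CDK1 differed among themselves as well, with CCNB1 at -3.14 ± 0.35 (DE), CDK1 at -1.33 ± 0.37 (DE) and CCNA2 at -0.73 ± 0.38 (SE; edgeR adjusted p = 0.0789). PLK1, AURKB and PRC1, which bundles the midzone of the spindle, were not DE either. These calls depended on the scaling. With library size alone every gene named here as not DE was lower in SM and DE (edgeR adjusted p = 0.0111 or less). PCNA was then at -1.04, MCM4 at -0.69, CCNA2 at -1.49, AURKB at -1.46, PLK1 at -0.85 and PRC1 at -0.98. That scaling put the median of all genes at -0.90.

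The 3 genes higher in SM were named after their values were seen. HMMR, a hyaluronan receptor that also binds spindle microtubules, was at 1.93 ± 1.04 CPM in AT and 8.78 ± 3.19 CPM in SM (SD), a log2 difference of 2.13 ± 0.35 (SE; edgeR adjusted p = 1.56e-06). AURKA, a centrosomal mitotic kinase, was at 1.07 ± 0.25 and TPX2, which binds and activates it on the spindle, at 0.97 ± 0.28. HMMR and TPX2 were higher in SM in 6 of 6 animals and AURKA in 5 of 6. With library size alone as the scaling, which moved the median of all genes from -0.17 to -0.90, HMMR stayed DE and higher at 1.38, while AURKA at 0.34 and TPX2 at 0.22 were no longer DE. Over both scalings 5 members lay above the median of all genes. In the same RefSeq annotation HMMR overlaps NUDCD2, AURKA overlaps CSTF1, and TPX2 overlaps a long non-coding RNA. Among the genes described above, CCNA2 overlaps EXOSC9, MCM7 overlaps AP4M1 and PRC1 overlaps RCCD1 in the same annotation. The part of shared reads in these levels was not tested.

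**Figure D5:**
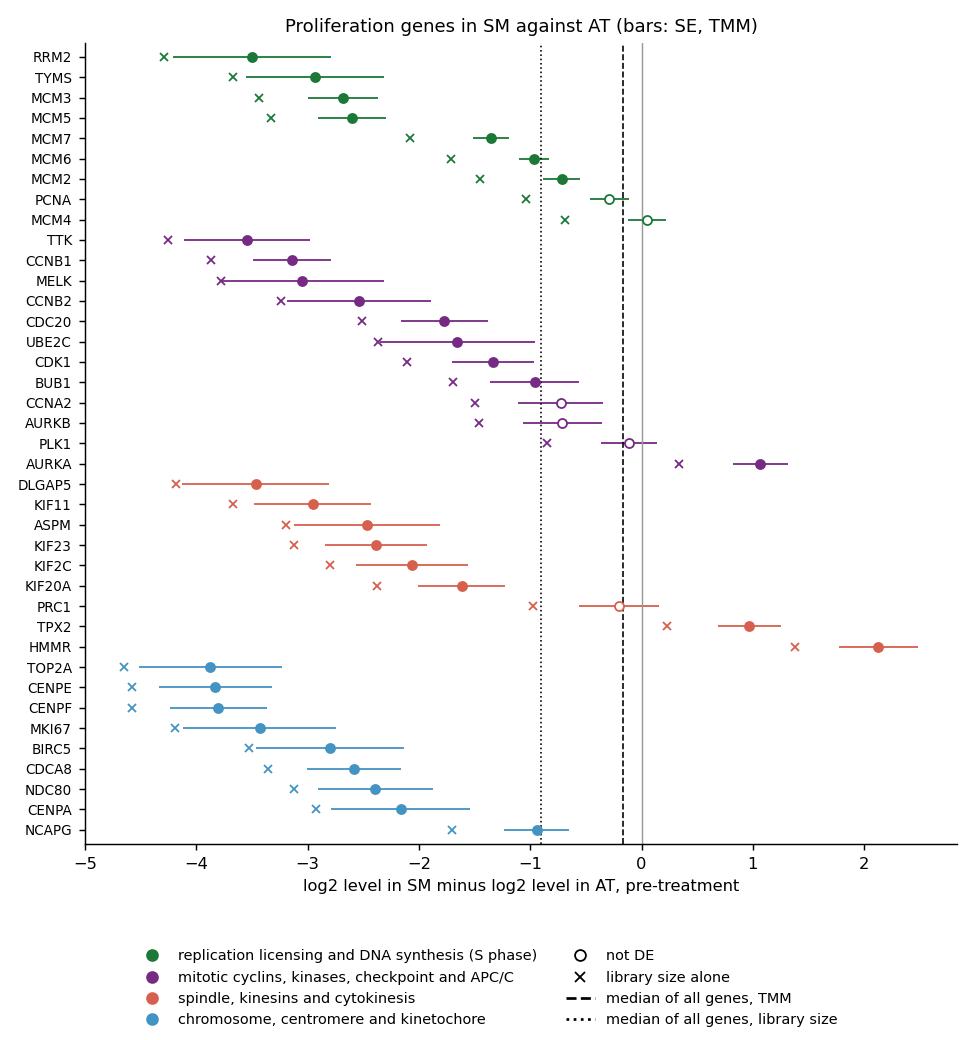
Log2 level in SM minus log2 level in AT at pre-treatment (x axis) for the 39 genes (y axis, coloured by role). Circles with SE bars are TMM-scaled values, filled when DE, crosses are values with library size alone, and dashed and dotted lines mark the median of all genes under each scaling, -0.17 and -0.90. TOP2A is lowest at -3.87 and HMMR, TPX2 and AURKA are the filled circles to the right of 0.

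A further 110 genes of the same pathway, S phase and G2/M genes and their transcription factors outside the members, were counted in the same fits. Of these 100 were in the table and tested in AT, and 85 were tested in SM. In AT 3 were DE from pre-treatment to post-treatment, 1 higher and 2 lower, a share of 3% beside 14.5% of all genes tested. E2F1, the transcription factor of S phase entry, fell by 0.89 ± 0.19 (edgeR adjusted p = 0.00879), lower in 8 of 9 animals. CDC25A, the phosphatase that frees CDK2 and CDK1, fell by 0.46 ± 0.13 (edgeR adjusted p = 0.0288), and BLM, a DNA repair helicase, rose by 0.37 ± 0.10 (edgeR adjusted p = 0.0209).

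At washout against post-treatment 13 of the 100 were DE in AT, 7 higher and 6 lower, a share of 13% beside 34% of all genes tested. SMC2, a condensin subunit, fell by 0.80 ± 0.17, BLM fell by 0.39 ± 0.10 and NCAPG2, of the second condensin complex, fell by 0.40 ± 0.11 (edgeR adjusted p = 0.00145, 0.00683 and 0.00886). Of the 7 that rose, GTSE1, a microtubule-binding protein of G2 and S phase chosen after its values were seen, had the largest change, 0.95 ± 0.27 (edgeR adjusted p = 0.0116), higher in 6 of 8 animals. From pre-treatment to washout 9 were DE, 5 higher and 4 lower, a share of 9% beside 19.8% of all genes tested. CDC25B, a phosphatase of mitotic entry, rose by 0.59 ± 0.12, POLA1, the primase-bound DNA polymerase, fell by 0.32 ± 0.08 and NCAPD2, another condensin subunit, rose by 0.42 ± 0.11 (edgeR adjusted p = 0.00141, 0.00735 and 0.0112). In SM none of the 85 was DE by edgeR, DESeq2 or voomWithQualityWeights in any comparison. By edgeR 2, 5 and 6 of the 85 had an unadjusted p under 0.05 in the order of the comparisons above. The shares of all genes tested were 2.56%, 16.1% and 12.8%. The SM change differed from the AT change in 0, 7 and 7 of the 85, and 7 of 85 is 8.24% beside 21.9% and 17% of all genes tested. Between the tissues before treatment 77 of the 100 were DE, a share of 77% beside 76.4% of all genes tested, with 67 lower and 10 higher in SM beside 41.3% and 35.1%. Those tested in AT but not in SM entered this comparison through AT alone.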

How the data were processed

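RNA from subcutaneous AT and gastrocnemius SM was prepared as stranded mRNA libraries, and the authors aligned paired-end reads with STAR to the MacaM rhesus genome, matched genes to human homolog symbols and deposited raw counts per gene. The counting tool and the aligner's version are not given in the sources used here. Of 51 labelled samples, 48 had counts, and 3 SM samples were not analysed here. The table's 16103 entries gave 16033 genes after 70 entries with a repeated gene identifier were dropped. Library totals had a median of 18578869 counts, which set the counting precision of each value.

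Samples were grouped by tissue and time point from their labels. CPM were computed with TMM factors within a tissue, except between tissues. Counts were fitted over the 3 time points of a tissue with the animal as a block, using edgeR 4.0.16 (quasi-likelihood test) in R 4.3.3. P-values were adjusted by Benjamini-Hochberg across the whole tested table. Log2 CPM values were computed with a prior count of 2. The difference between tissues in their change was a term in a fit over both, with animal terms for each tissue. Pairing came from the animal identifiers: deviations of libraries of the same animal correlated at a median r of 0.352 (25 pairs) in AT and 0.279 (19 pairs) in SM, against -0.0354 (217 pairs) and -0.0464 (127 pairs) between animals. Alternatives were limma 3.58.1, DESeq2 1.42.0, other scaling, filters and covariates, and leaving out animals. Fits were tested on simulated data. The rule for named genes took 8 customary markers, members DE within a tissue or called between tissues (up to 6 per comparison), the 3 largest positive and negative changes per AT comparison and, of the other pathway genes, the 3 DE with the smallest adjusted p. Members with an unadjusted p under 0.05 in SM, those next to the threshold between tissues, the genes singled out between SM and AT, and overlapping genes were named after their values were seen. The members and gene lists were chosen with earlier results of these data known.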

Additional observations from a re-analysis of the deposited data

Results flagged for a closer look

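Among 75 groups of AT and SM values examined, 3 held a sample far from the others, where chance flags about 1 in 20 groups. PCNA at 94.0 CPM and CENPE at 22.1 CPM in AT at post-treatment were both in animal 20275, and PCNA at 58.1 CPM in AT at washout was in animal 23004.

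The change from post-treatment to washout differed between tissues for CENPF, where the SM change exceeded the AT change by 2.15 on the log2 scale (edgeR adjusted p = 0.00457), and for PLK1, with a difference of -1.20 (edgeR adjusted p = 0.0116). From pre-treatment to washout the differences were 1.56 for CENPF and -1.07 for PLK1 (edgeR adjusted p = 0.0444 and 0.0310).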

How the results depend on the processing

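Of the summary values under the alternatives, 204 stayed near their reported value and 43 moved. Counts of genes DE under a setting are given below without the share of all genes called under it. A changed count is therefore not a result particular to these genes. Of the gene values, 932 kept their direction and side of the threshold, 37 gained and 36 lost it, and 14 reversed. Leaving out the post-treatment library of animal 20275 or the washout library of animal 23004 was chosen after seeing the data.

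From pre-treatment to post-treatment in AT, 1 member was DE with voomWithQualityWeights and 1 without the post-treatment library of animal 20275, and 0 to 1 when animals were left out in turn. MKI67 reversed to -0.24 with voomWithQualityWeights, -0.13 with the identifier series as a covariate, -0.0059 with only the 2 time points, -0.059 without the pre-treatment library of animal 20275 and -0.23 without its post-treatment library, and ran from -0.20 to 0.35 with animals left out, below 0 without 20275 (-0.20) or 22130 (-0.12). TOP2A reversed to -0.24 with voomWithQualityWeights and -0.15 without that post-treatment library, and ran from -0.14 to 0.48 with animals left out. RRM2 reversed to -0.20 with voomWithQualityWeights. At washout against post-treatment, CDK1 reversed to 0.014 with voomWithQualityWeights and 0.086 without the post-treatment library of animal 20275, and ran from -0.35 to 0.086 with animals left out. The cause was not tested.

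From post-treatment to washout in AT, 8 members were DE with voomWithQualityWeights and 8 without the washout library of animal 23004, and 4 to 8 with animals left out, 8 without 23004 or 26292. From pre-treatment to washout, 8 were DE with voomWithQualityWeights, 4 with DESeq2, 1 with library size alone, 4 with the identifier series, 8 with only the 2 time points, 4 without the post-treatment library of 20275 and 4 without the washout library of 23004. With animals left out it was 1 to 3, and 1 without 20261, 21866, 22130, 23004 or 24849. In SM the identifier series gave 3 DE members from post-treatment to washout and 1 from pre-treatment to washout.

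Without the replicate block AT counts were 0, 5 and 2, as with it, while the tissue difference called 4 members from post-treatment to washout and 1 from pre-treatment to washout, where leaving out animals gave 0 to 3. Between tissues before treatment leaving out animals gave 31 to 34 DE members.

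For the other pathway genes in AT, voomWithQualityWeights and DESeq2 each gave 5 from pre-treatment to post-treatment. From post-treatment to washout 8 were DE without the replicate block and 3 with only the 2 time points. From pre-treatment to washout 18 were DE with voomWithQualityWeights, 14 with the identifier series and 14 with only the 2 time points. In SM the identifier series gave 11 and 3 against post-treatment and pre-treatment. The tissue difference from pre-treatment to washout gave 4 with library size alone and 3 without the replicate block. Many SM members had few counts, but few SM genes of any kind were called, and the part of depth was not tested.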
